A study of Homo sapiens with 12 samples.

Results

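The genes described here are 9 members of the ERBB signalling system, taken from 20046 genes with a named probe: the receptors EGFR, ERBB2 and ERBB3, the ligands HBEGF, TGFA, EREG and BTC, and the receptor brakes ERRFI1 and LRIG1. They were chosen by symbol, and every array probe annotated to them was read, 18 probes of 48102. ERBB receptors are tyrosine kinases at the cell surface that pair after a ligand binds and then pass signals to the RAS-ERK and PI3K pathways. ERBB2 has no known ligand and acts as a partner, and ERBB3, whose kinase is weak, recruits PI3K when paired. ERRFI1 binds and inhibits the activated EGFR kinase and is itself induced by receptor signalling, and LRIG1 is a membrane protein that promotes receptor breakdown.

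RNA came from PC9, an established lung adenocarcinoma line whose mutated, active EGFR is blocked by the inhibitor gefitinib. There were 4 groups of 3 arrays. The first held PC9 co-cultured with MRC-5 lung fibroblasts and given 0.5 µM gefitinib, and the next held the same co-culture without gefitinib. The other groups were PC9 grown without fibroblasts, either with 0.5 µM gefitinib or with DMSO, the solvent. The label text puts gefitinib after 24 h, then washes, then 48 h with the fibroblasts on inserts with 1 µm pores, in medium with 10% serum. The labels carry the same treatment text on every sample, including those without gefitinib or fibroblasts, and they do not say whether the drug was present during co-culture or what vehicle the co-culture without gefitinib had. All 6 co-culture titles, and 0 of the other 6, end in WH, which no label explains, so whatever it marks cannot be told apart from co-culture. PC9 is a single line, and no label says that the 3 samples of a group were separate cultures, so p-values measure the spread between these samples, which may be technical.

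Between 20917 and 22820 probes per array were detected, meaning that the deposited detection p-value was under 0.05. The mean unprocessed signal per array ran between 371 and 444 intensity units. All 8 epithelial markers of PC9 were detected on every array. Of 18 fibroblast markers, COL3A1, LUM, THY1 and PDGFRB were detected on 0 of 12 arrays. On at least 1 array of the group, 12 of the 18 were detected in co-culture with gefitinib, 10 in co-culture without it, 9 with gefitinib alone and 10 with DMSO alone. COL6A3 was detected on 2, 1, 0 and 0 of 3 arrays in that order of groups, FBN1 on 1, 1, 0 and 0, and FAP and DPT each on 1, 0, 0 and 0, at signals of up to 123. Other markers were mixed or leaned the other way. In the same order PDGFRA was detected on 0, 1, 2 and 1 arrays, POSTN on 0, 0, 0 and 1 and TAGLN on 3, 1, 3 and 3. COL1A2 was detected on 1, 2, 1 and 1 and DCN on 2, 0, 1 and 1. The list's summed background-corrected signal was 1907 to 2123 in co-culture with gefitinib, 367 to 584 in co-culture without it, 2800.3 to 2849 with gefitinib alone and 527 to 673 with DMSO alone. That sum was higher in both gefitinib groups and was not higher in co-culture than in the matching culture without fibroblasts. With gefitinib alone the brightest of the list were TAGLN (1157 to 1260), MFAP5 (663 to 742), COL5A1 (581 to 628) and SPARC (398 to 457). All of these were detected on every array of PC9 grown without fibroblasts, so the sum is not a measure of fibroblast RNA alone. The part of the fibroblast markers in the changes under gefitinib or co-culture was not tested. The early ERK targets DUSP6, ETV4, ETV5 and SPRY4 all fell with gefitinib, with a median change of -2.00 on the log2 scale in co-culture and -3.59 alone, and the drug's effect on each was smaller in co-culture.

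Of the 9 genes, 8 had a probe detected on 3 or more arrays and were tested, and LRIG1 did not. With gefitinib alone, ERBB2 and ERBB3 rose and EGFR, HBEGF and ERRFI1 fell, which is 2 higher and 3 lower of 8. Of 13514 genes, 40.8% were called, 21.1% higher and 19.7% lower. In co-culture, gefitinib raised ERBB2, ERBB3 and TGFA and lowered HBEGF, 3 higher and 1 lower of 8. Of all genes 20.1% were called, 10.9% higher and 9.17% lower. In co-culture with gefitinib HBEGF and ERRFI1 were higher and ERBB3 lower than with gefitinib alone, 2 higher and 1 lower of 8. Of all genes 13.5% were called, 7.1% higher and 6.36% lower.

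Co-culture without gefitinib changed 0 of 8 in the limma test at an adjusted p under 0.05, where 0.355% of all genes were called, 0.237% higher and 0.118% lower. At an unadjusted p under 0.05 there were 2 of 8, beside 11.8% of all genes, EGFR at -0.25 ± 0.09 (SE) and ERBB3 at 0.21 ± 0.09 on the log2 scale. The drug's effect in co-culture minus its effect alone, tested as an interaction, was called for HBEGF, ERRFI1 and ERBB3, 2 higher and 1 lower of 8, beside 7.27% of all genes, 3.94% higher and 3.34% lower. Set against DMSO alone, co-culture with gefitinib had higher ERBB2 and ERBB3 and lower EGFR and HBEGF, 4 of 8, beside 25% of all genes, 13.2% higher and 11.9% lower. These comparisons share arrays with each other. On the normalized scale the arrays of both groups did not overlap for 5 of 8 genes with gefitinib alone (50% of all genes), 6 with gefitinib in co-culture (37.3%), 2 with co-culture without gefitinib (17.5%), 6 for co-culture with gefitinib against gefitinib alone (31.7%) and 6 against DMSO alone (40.5%). The normalized values of every array are plotted by gene and group.

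**Figure D1:**
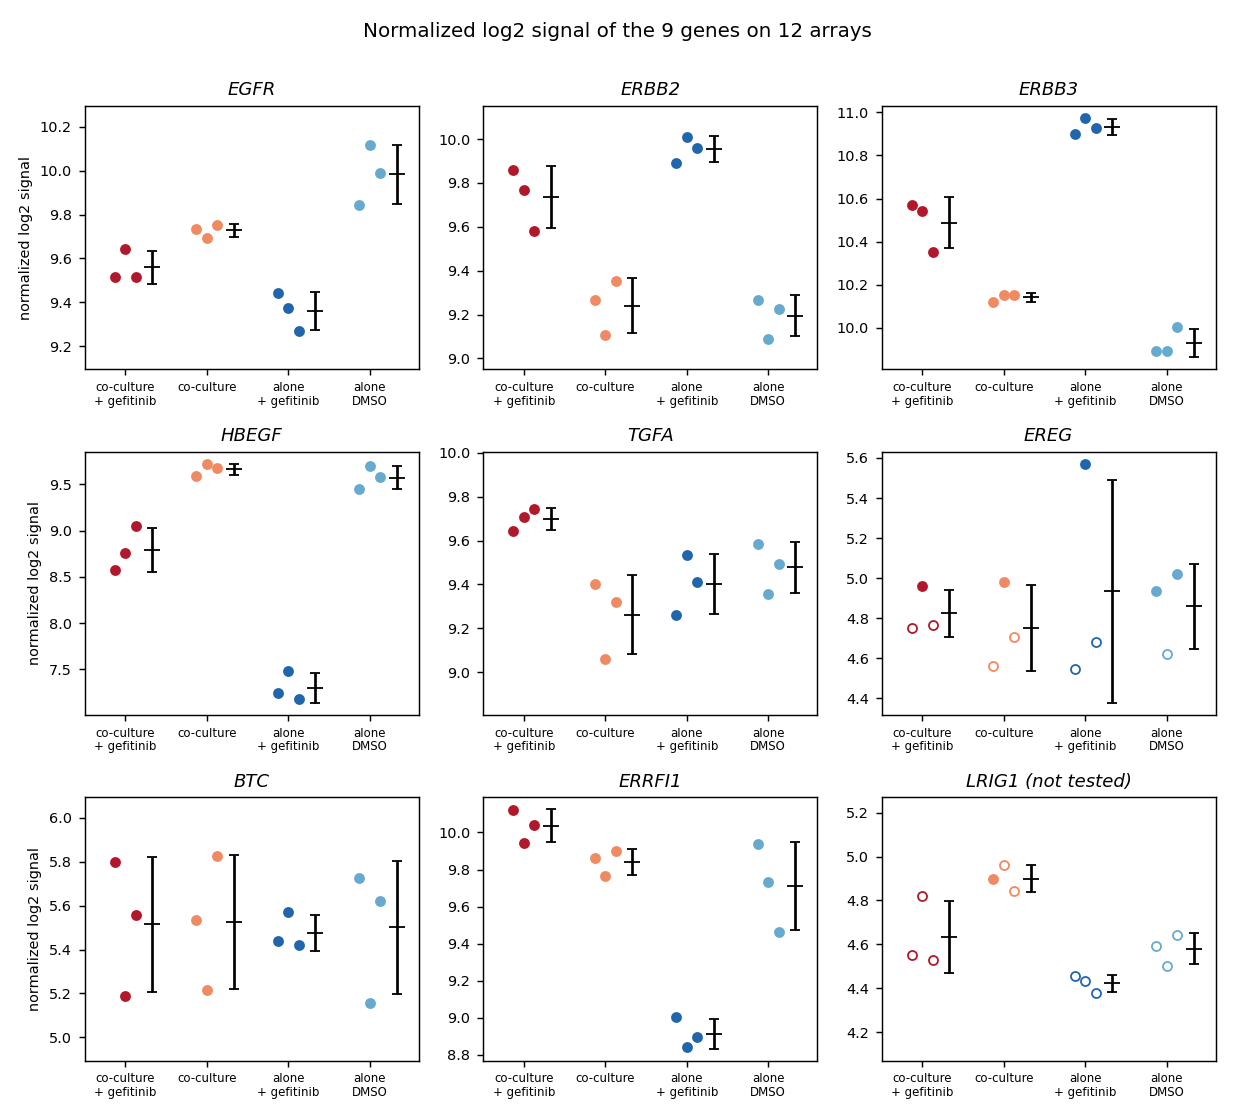
Normalized log2 signal (y axis) of the probe used for each of the 9 genes on each of the 12 arrays, by group (x axis). Filled points are detected arrays, open points are not, and the black bars are the mean and SD of 3 arrays. HBEGF and ERRFI1 are lowest with gefitinib alone, and ERBB3 is highest there.

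Among the ligands, HBEGF changed most. HBEGF encodes heparin-binding EGF-like growth factor, a membrane-anchored ligand of EGFR and ERBB4 that is released by cleavage. Its unprocessed signal was 484, 572 and 665.5 in co-culture with gefitinib and 752, 919.6 and 950.5 in co-culture without it, against 223, 248 and 222 with gefitinib alone and 802, 816 and 856 with DMSO alone. The arrays with gefitinib alone lay below all others, those of co-culture with gefitinib came next, and the 2 groups without drug overlapped.

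On the normalized scale gefitinib changed HBEGF by -0.87 ± 0.13 log2 units (SE) in co-culture (adjusted p = 0.000692). Without fibroblasts HBEGF fell by 2.28 ± 0.13, or 4.84-fold (adjusted p = 1.81e-07), the 24th largest fall among 13514 genes. The difference between both effects was 1.41 ± 0.19 (adjusted p = 0.0025). HBEGF was 2.82-fold higher in co-culture with gefitinib than with gefitinib alone (log2 1.49 ± 0.13, adjusted p = 6.54e-05). Even so, it was lower than with DMSO alone, by -0.78 ± 0.13 (adjusted p = 0.00124). Co-culture without drug shifted HBEGF by 0.09, with a 95% interval of -0.20 to 0.38. Because the RNA is bulk, fewer cells of a type and less RNA per cell cannot be told apart. The PC9 epithelial markers' summed signal was 32456 to 35869 in co-culture with gefitinib and 33949 to 34739 with gefitinib alone. It was 25678 to 33007 in co-culture without gefitinib and 27351 to 30933 with DMSO alone. Of these 8 markers, 1 was higher and 3 lower in co-culture with gefitinib than with gefitinib alone, beside 13.5% of all genes called. The part of cell numbers in the HBEGF difference was not tested.

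TGFA encodes transforming growth factor alpha, another EGFR ligand. Its probe ILMN_2083946 read 928, 1029 and 1022 in co-culture with gefitinib and 672, 609 and 762 in co-culture without it. With gefitinib alone it read 655, 758 and 730.3, and with DMSO alone 867, 663 and 810.2. Within co-culture the groups with and without drug did not overlap, and TGFA rose by 0.44 ± 0.11 log2 units (adjusted p = 0.0183). The call was lost without array 2 or 3 of co-culture with gefitinib and without array 2 of co-culture without it, where the adjusted p was 0.0536, 0.0559 and 0.0742. Without fibroblasts the groups overlapped, and the change was -0.08 (95% interval -0.33 to 0.17, adjusted p = 0.643). The difference between both effects was 0.51 ± 0.16 (adjusted p = 0.0808).

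The other TGFA probe, ILMN_1805175, read 698, 688 and 645 in co-culture with gefitinib and 528, 586 and 641 in co-culture without it, and its change there was 0.08 (adjusted p = 0.664 over all probes). The 2 probes thus differed in size of change, and with their mean TGFA was no longer called (0.26, adjusted p = 0.0694).

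EREG encodes epiregulin and BTC betacellulin, both EGFR and ERBB4 ligands. EREG was detected on 5 of 12 arrays, at signals of 92.6 to 123, and in every group some array was not above background. BTC was detected on all 12 arrays, at 109 to 139. Neither was called in any of the 6 comparisons, with changes in EREG between -0.11 and 0.08 and in BTC between -0.03 and 0.04 on the log2 scale. The 95% interval of EREG under gefitinib alone was -0.43 to 0.58, and that of BTC -0.46 to 0.41.

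Of the receptors, EGFR, the target of gefitinib, gave unprocessed signals of 861, 990.5 and 892 in co-culture with gefitinib and 820.3, 908.5 and 1005 in co-culture without it, against 728, 685 and 668 with gefitinib alone and 1032, 1082 and 1113 with DMSO alone. In unprocessed signal the gefitinib arrays without fibroblasts lay below the DMSO arrays with no overlap, while the co-culture groups overlapped. On the normalized scale the co-culture arrays with gefitinib also lay below those without it, with no overlap. In co-culture gefitinib shifted EGFR by -0.17 log2 units (95% interval -0.38 to 0.04, adjusted p = 0.252). With gefitinib alone EGFR fell by 0.62 ± 0.09 (adjusted p = 0.000254), a 1.54-fold difference. The difference between both effects was 0.45 ± 0.13 (adjusted p = 0.0658), so the fall in one culture and not in the other was not shown to differ at the threshold used. It passed in 4 of 21 alternative settings, the lowest adjusted p being 0.0122. EGFR was lower by -0.42 ± 0.09 in co-culture with gefitinib than with DMSO alone (adjusted p = 0.00694), a call lost under median scaling (-0.38, adjusted p = 0.0733).

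ERBB2, which encodes the ligand-less partner receptor, had 1052, 1065 and 931 in co-culture with gefitinib and 618, 627 and 779 in co-culture without it. With gefitinib alone it had 979, 1025 and 1032, and with DMSO alone 721, 564 and 689. All 6 gefitinib arrays were above all 6 arrays without drug. ERBB2 rose by 0.49 ± 0.10 with gefitinib in co-culture (adjusted p = 0.00569) and by 0.76 ± 0.10 with gefitinib alone (adjusted p = 0.000116). The difference between both effects was -0.26 ± 0.15 (95% interval -0.59 to 0.06, adjusted p = 0.321). Co-culture shifted it by -0.22 with the drug (95% interval -0.45 to 0.01) and by 0.05 without it (95% interval -0.18 to 0.27).

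ERBB3 had the larger rise of the receptors with gefitinib alone, and ERBB2 in co-culture, differences that were not tested between the genes. ERBB3 had 1659.6, 1751 and 1517 in co-culture with gefitinib and 1056, 1224 and 1306 in co-culture without it, against 1849.8, 1887 and 1907 with gefitinib alone and 1068, 926 and 1125 with DMSO alone. The gefitinib arrays without fibroblasts were the highest, those of the co-culture with gefitinib were next, and the groups without drug overlapped in unprocessed signal. The rise was 0.35 ± 0.09 with gefitinib in co-culture (adjusted p = 0.015) and 1.00 ± 0.09, or 2.00-fold, with gefitinib alone (adjusted p = 3.39e-06).

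The ERBB3 effects differed by -0.66 ± 0.12 (adjusted p = 0.0114), and ERBB3 was lower by -0.45 ± 0.09 in co-culture with gefitinib than with gefitinib alone (adjusted p = 0.00636). Under median scaling, which does not force equal signal distributions, these were -0.26 (adjusted p = 0.402) and -0.16 (adjusted p = 0.482), no longer called. The rise in co-culture lost its call without array 1 or 2 of co-culture with gefitinib, at adjusted p = 0.0609 and 0.0575, in a fit of these groups alone, at 0.055, and with the mean of probes, at 0.27 (adjusted p = 0.0724).

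The further probes of the receptors were closer to background. ERBB3 probe ILMN_1737993 read 164, 139.7 and 144 in co-culture with gefitinib, 124, 113 and 137 in co-culture without it, 149, 129.9 and 170.2 with gefitinib alone and 123, 122 and 142 with DMSO alone. Per probe, 37.4% of 18289 probes were called with gefitinib alone, 17.4% with gefitinib in co-culture and 22.1% against DMSO alone. The change of ILMN_1737993 with gefitinib alone was 0.45 ± 0.24 (adjusted p = 0.165), and that of ILMN_2397602, detected on 3 of 12 arrays, was 0.47 ± 0.19 (adjusted p = 0.076). Both had the sign of the brighter ERBB3 probe without being called. In co-culture ILMN_1737993 changed by 0.37 ± 0.24 with gefitinib (adjusted p = 0.338). Its difference of the gefitinib effects was -0.08 ± 0.34 (adjusted p = 0.925), and that of ILMN_2397602 was -0.39 ± 0.27 (adjusted p = 0.461). The brighter probe differed by -0.66. EGFR probe ILMN_1696521, annotated to another transcript variant, changed by -0.26 ± 0.14 with gefitinib alone (adjusted p = 0.181) and by -0.53 ± 0.14 in co-culture with gefitinib against DMSO alone (adjusted p = 0.0204). With gefitinib in co-culture it changed by -0.23 ± 0.14 (adjusted p = 0.33). Its difference of the gefitinib effects was 0.04 ± 0.20 (adjusted p = 0.946), beside 0.45 for the brighter EGFR probe. In co-culture with gefitinib against gefitinib alone ILMN_1696521 changed by -0.27 ± 0.14 (adjusted p = 0.277). The brighter probe changed there by 0.20, opposite in sign, and neither was called. Among the others, EGFR probe ILMN_1755535 was detected on 0 of 12 arrays, ILMN_1728858 on 7, and ERBB2 probes ILMN_1717902 and ILMN_1728761 on 3 and 2. ERBB2 probe ILMN_1717902 changed by -0.11 with gefitinib alone (adjusted p = 0.521), opposite in sign to the brighter probe and not called. With gefitinib in co-culture ILMN_1717902 changed by 0.35 ± 0.12 (adjusted p = 0.0632). Its difference of the gefitinib effects was 0.46 ± 0.17 (adjusted p = 0.14), opposite in sign to the -0.26 of the brighter ERBB2 probe, and neither was called. The plot of unprocessed signals shows each probe.

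**Figure D2:**
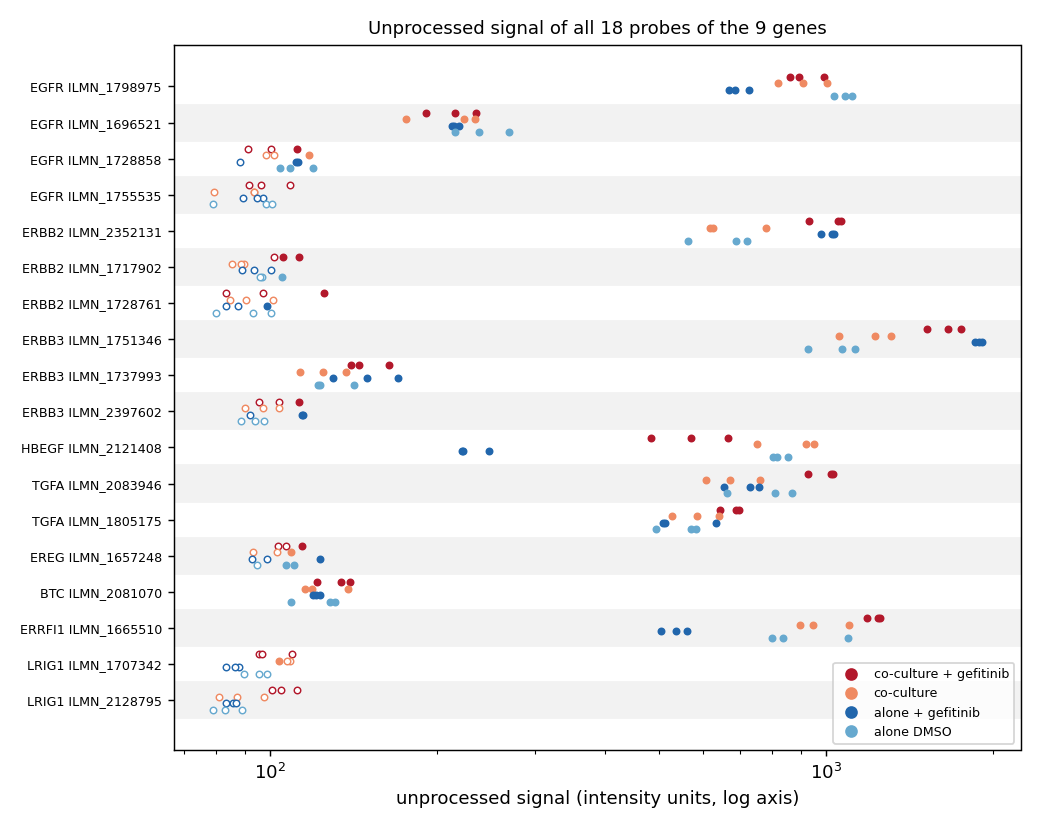
Unprocessed signal (horizontal log axis, intensity units) of all 18 probes on each of the 12 arrays, coloured by group. Filled points are detected arrays and open points are not. The brightest EGFR, ERBB2 and ERBB3 probes lie above their further probes, most of which are near the background of 92.4 to 98.3 units.

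ERRFI1, the induced EGFR inhibitor also known as MIG6, had 1250.3, 1186 and 1239 in co-culture with gefitinib and 898, 946 and 1099 in co-culture without it. With gefitinib alone it had 563, 505 and 536, and with DMSO alone 1094.5, 835 and 799. The arrays with gefitinib alone were below all other arrays, and those of co-culture with gefitinib were above all others. In co-culture the drug's effect on ERRFI1 was 0.19 ± 0.12 log2 units (95% interval -0.07 to 0.45, adjusted p = 0.295). With gefitinib alone ERRFI1 fell by 0.80 ± 0.12 (adjusted p = 0.000214). The difference between both effects was 0.99 ± 0.17 (adjusted p = 0.00736). ERRFI1 was 2.18-fold higher in co-culture with gefitinib than with gefitinib alone (log2 1.12 ± 0.12, adjusted p = 0.000202), the 56th largest rise of 13514 genes, while HBEGF ranked 24th there. Against DMSO alone it was 0.32 ± 0.12 higher (adjusted p = 0.0671), and it passed the threshold in 4 of 22 alternatives. These were no background correction (adjusted p = 0.0154), the authors' normalized values (0.0228), the strict filter (0.0458) and leaving out array 1 of DMSO alone (0.44, adjusted p = 0.0216).

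LRIG1 was not measurable above background. Its probe ILMN_1707342 read 95.5, 109 and 96.6 in co-culture with gefitinib, 104, 109 and 107 in co-culture without it, 88.1, 86.4 and 83.4 with gefitinib alone and 95.4, 89.8 and 98.7 with DMSO alone. It was detected on 1 of 12 arrays, in co-culture without gefitinib, and the other LRIG1 probe on 0 of 12. No fold is given, since the groups were not well above background.

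The changes of the 8 tested genes are drawn together for 5 comparisons. HBEGF and ERRFI1 fell with gefitinib alone and were higher in co-culture with gefitinib than with gefitinib alone. ERBB3 did the opposite in both comparisons.

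**Figure D3:**
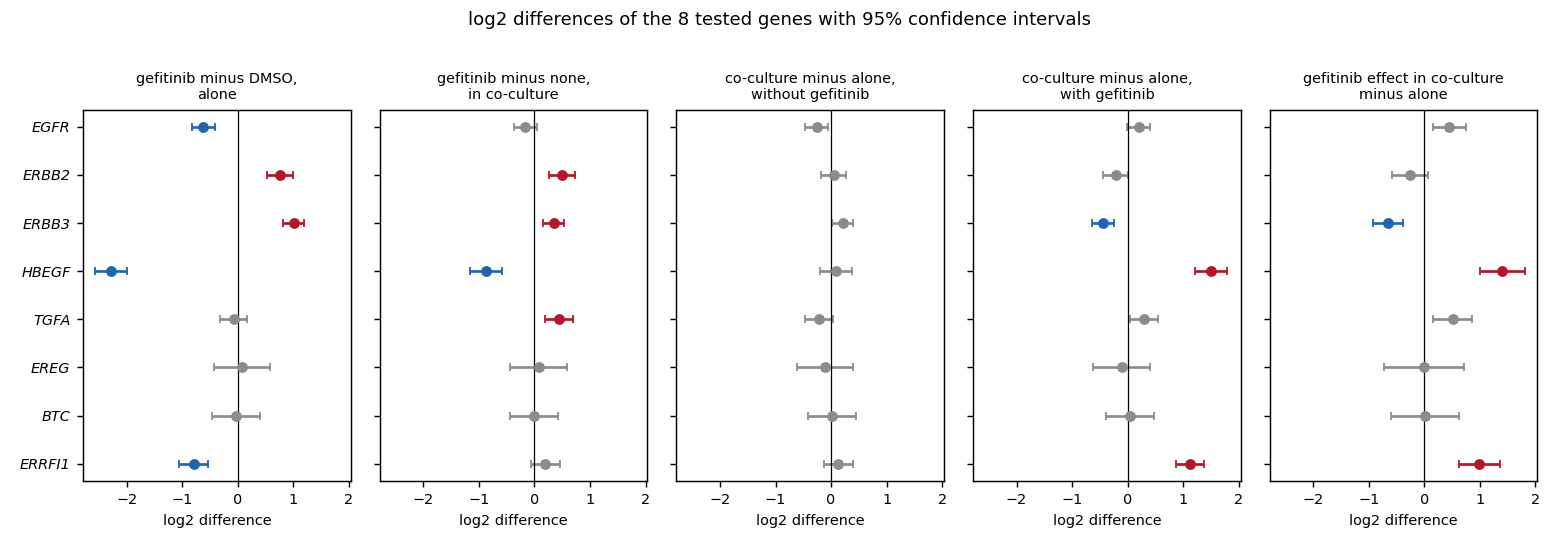
Log2 change (horizontal axis) with its 95% interval for each of the 8 tested genes in 5 comparisons. Red points were higher and blue points lower at an adjusted p under 0.05, and grey points were not called. HBEGF runs between -2.28 with gefitinib alone and 1.49 in co-culture with gefitinib against gefitinib alone.

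The start regions of the genes that moved in opposite directions are shown for comparison, as HBEGF and ERRFI1 fell with gefitinib alone and ERBB2 rose. The windows, from RefSeq on GRCh38.p14, span 250 bases before to 50 after the outermost annotated start of the gene, and 8 of 9 genes had an entry. Whether the transcripts read by the probes begin at these starts was not tested. The ERBB2 rise was read from ILMN_2352131, while ILMN_1717902, annotated to another ERBB2 transcript variant, was not called with gefitinib alone. HBEGF is at chr5:140346554-140346853 on the minus strand, ERRFI1 at chr1:8026260-8026559 on the minus strand and ERBB2 at chr17:39687844-39688143 on the plus strand. Both strands were searched for the AP-1, ETS, CRE, TATA and GC box motifs spelled out after the sequences, and capitals mark every match.
HBEGF: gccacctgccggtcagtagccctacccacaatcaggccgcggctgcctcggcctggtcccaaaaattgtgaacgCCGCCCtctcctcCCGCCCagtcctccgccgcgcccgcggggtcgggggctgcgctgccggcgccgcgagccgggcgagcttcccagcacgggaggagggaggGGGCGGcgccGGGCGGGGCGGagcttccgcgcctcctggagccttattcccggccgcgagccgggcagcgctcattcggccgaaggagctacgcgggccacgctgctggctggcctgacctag
ERRFI1: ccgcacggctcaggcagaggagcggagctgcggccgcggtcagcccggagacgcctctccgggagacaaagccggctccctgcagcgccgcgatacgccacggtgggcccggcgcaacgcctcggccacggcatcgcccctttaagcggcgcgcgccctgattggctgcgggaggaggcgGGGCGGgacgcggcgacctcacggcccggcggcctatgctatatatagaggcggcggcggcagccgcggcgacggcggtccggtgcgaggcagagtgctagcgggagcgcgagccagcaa
ERBB2: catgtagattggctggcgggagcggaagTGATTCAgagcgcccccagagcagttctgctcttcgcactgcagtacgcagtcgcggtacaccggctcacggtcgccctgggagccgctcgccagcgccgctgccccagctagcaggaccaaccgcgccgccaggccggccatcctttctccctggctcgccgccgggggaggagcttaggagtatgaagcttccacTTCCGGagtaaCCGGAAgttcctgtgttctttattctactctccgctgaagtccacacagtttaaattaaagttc

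The GC box, GGGCGG, was found 5 times in the HBEGF window, where 2 of the matches share 1 base, and once in that of ERRFI1, and 44.95% of 35114 windows of this length held it. The AP-1 letters, TGANTCA, matched at 1 place in ERBB2, beside 7.709% of windows with a match. The ETS letters, CCGGAA, matched at 2 places in ERBB2, and 17.25% of windows held them. The CRE letters, TGACGTCA, were in 1.848% of windows and in 0 of these 3. The TATA letters, TATAAA, were in 11.53% of windows and in 0 of these 3. GC content was 75.0% for HBEGF, 74.67% for ERRFI1 and 60.67% for ERBB2, against a median of 58.67% over all windows. These are matches of letters only.

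Other ERBB ligands and the remaining receptor showed no call. Of 8 listed, AREG and EPGN had no named probe, ERBB4 and NRG2 were detected on 0 of 12 arrays and NRG3 on 1, and EGF, NRG1 and NRG4 were tested. In the limma test 0 of these 3 were called in each of the 6 comparisons, where between 0.355% and 40.8% of all genes were called. The NRG1 probe used was detected on 5 of 12 arrays. NRG4, an ERBB4 ligand, came nearest, at 0.59 ± 0.13 in co-culture without gefitinib against DMSO alone (adjusted p = 0.0927). It read 199, 176 and 217 in co-culture without gefitinib and 167, 145 and 157 with DMSO alone, with no overlap.

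Genes that release ligands from the membrane were read next: 9 listed, all tested. With gefitinib alone 4 were higher and 2 lower, where 40.8% of all genes were called, with a median change of 0.21 against 0.0028 over all genes. ADAM10, which sheds betacellulin and EGF, rose by 0.98 ± 0.19 (adjusted p = 0.00129), and RHBDL2, a rhomboid protease, by 0.87 ± 0.12. RHBDF1, an iRhom that carries ADAM17 to the surface, rose by 0.63 ± 0.08, and TIMP3, a metalloprotease inhibitor, fell by 0.56 ± 0.12 on the log2 scale. The other calls were ADAM12 at 0.45, which was lost with other background correction or scaling, and RHBDF2 at -0.36. In co-culture, where 20.1% of all genes were called, 3 were higher, ADAM10 at 0.81, RHBDL2 at 0.43 and RHBDF1 at 0.36, and TIMP3 was lower at -0.79. In co-culture with gefitinib against gefitinib alone, with 13.5% of all genes called, 1 of the 9 was called, RHBDF1 at -0.34, and under median scaling this was -0.07 and not called.

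Of 25 genes for receptor breakdown and phosphatases, 23 were tested, PTPRJ having no named probe and LRIG3 not passing the filter. With gefitinib alone 5 were higher and 5 lower, a share near the 40.8% of all genes, with a median of 0.0077, and under median scaling 3 were higher and 5 lower. CBLB, a ubiquitin ligase for activated receptors, rose by 1.91 ± 0.10 (adjusted p = 9.31e-08), and its relative CBL fell by 0.61 ± 0.09. NEDD4, another ubiquitin ligase, rose by 0.77 ± 0.11, and SH3KBP1, an adaptor of receptor uptake also called CIN85, fell by 0.65 ± 0.10. The further rises were EPS15 at 0.55, PTPRK at 0.52 and TSG101 at 0.36, and the further falls SOCS5 at -0.57, STAM at -0.54 and PTPN12 at -0.46. In co-culture gefitinib raised CBLB by 1.63 ± 0.10, PTPRK by 0.44 and NEDD4 by 0.36, and SH3KBP1 at -0.88 and STAM at -0.55 were lower. That was 3 higher and 2 lower of 23, where 20.1% of all genes were called. Co-culture with gefitinib had CBL higher than gefitinib alone, at 0.35, and CBLB and EPS15 lower, both at -0.52, the last 2 not called under median scaling. This was 1 higher and 2 lower of 23, beside 13.5% of all genes. The difference of the gefitinib effects was called for CBL, at 0.49 ± 0.13 (adjusted p = 0.0407), and for 0 of the others in the limma test. Of all genes 7.27% were called.

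Of 22 adaptors and first effectors, 16 had a named probe and all 16 were tested. With gefitinib alone 5 were higher and 2 lower, also near the 40.8% of all genes, with a median of 0.20, and under median scaling 3 were higher and 3 lower. GAB2, a docking protein for PI3K and SHP2, rose by 1.48 ± 0.09 (adjusted p = 2.81e-07). GRB7, an adaptor that binds ERBB2 and lies near it in the genome, rose by 0.73 ± 0.11, and HRAS fell by 0.72 ± 0.08. The other calls were SOS1 at 0.68, PLCG1 at 0.43, NCK2 at 0.34 and PTPN11 at -0.35. In co-culture GAB2 at 0.88 and PIK3R1 at 0.55 were higher and HRAS at -0.33 was lower, 2 higher and 1 lower of 16, beside 20.1% of all genes. The difference of the gefitinib effects was called for 2 of 16, both lower, beside 7.27% of all genes. Both GRB7 and GAB2 had smaller gefitinib effects in co-culture, by -0.89 ± 0.16 (adjusted p = 0.009) and -0.60 ± 0.13 (adjusted p = 0.0201). Under median scaling these were -0.50 (adjusted p = 0.0788) and -0.18 (adjusted p = 0.54). The changes of the listed genes are plotted by list.

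**Figure D4:**
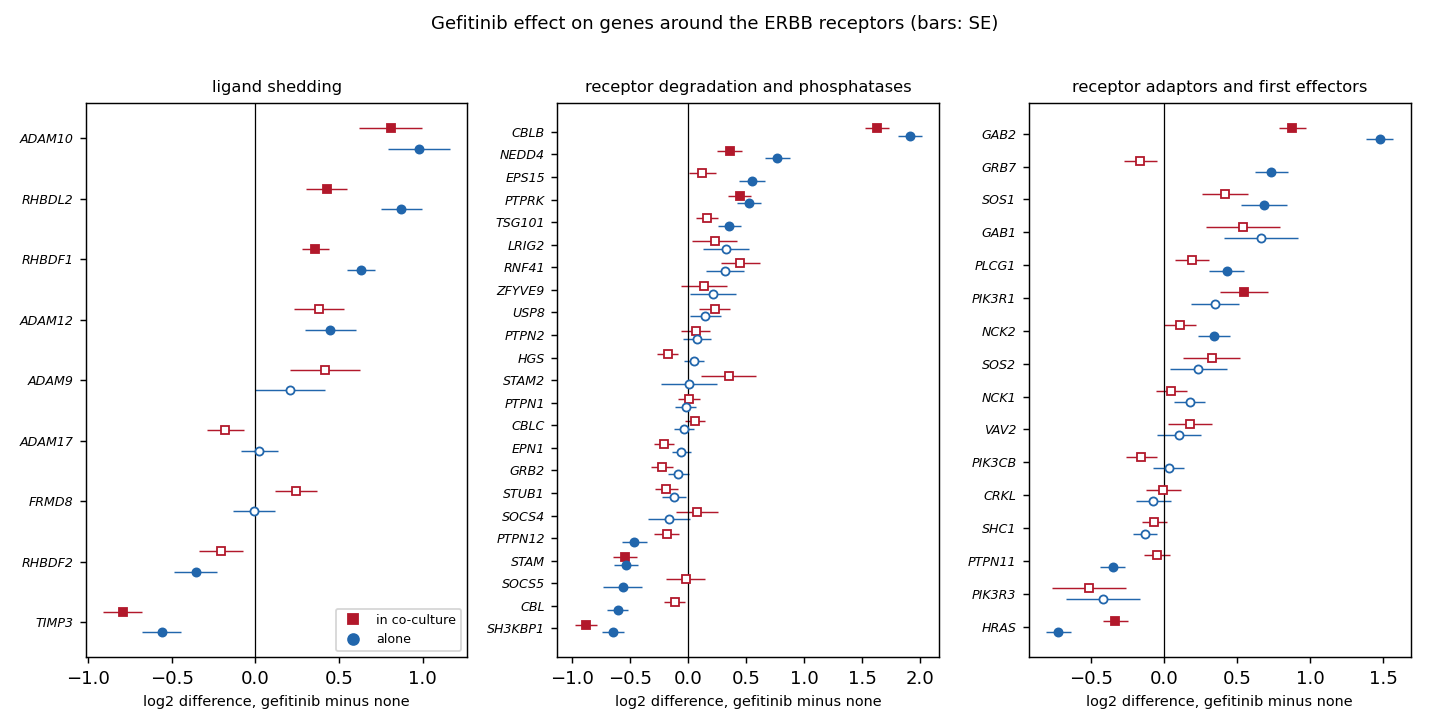
Log2 change under gefitinib (horizontal axis) for the genes of the pathway lists, in co-culture (squares) and alone (circles), with SE bars. Filled markers passed the adjusted p of 0.05. CBLB and GAB2 have the largest rises with gefitinib alone among these lists, at 1.91 and 1.48.

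The gene nearest to each member in pattern was found by the root mean square difference of centred log2 values over the 12 arrays, among 13513 other genes. ERBB3 was closest to PTPN6, at 0.052, and ERBB2 to LYN, at 0.070. HBEGF was closest to IGFBP4, at 0.14, beside its own SD of 1.00 over the 12 arrays. EGFR was closest to TBRG4 at 0.078, TGFA to PICALM at 0.097 and ERRFI1 to GPD1L at 0.17. The arrays and their normalization are shared by all genes, and these distances carry no test.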

How the data were processed

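Total RNA was read on 12 single-colour Illumina bead arrays, 3 in each of 4 groups given by the sample titles. The deposited table holds unprocessed intensity values, which the authors did not log, with a detection p-value per probe that the authors supplied by a method the sources used here do not state. A further deposited table holds the authors' normalized intensity values, used as an alternative, and its columns matched their own arrays in 12 of 12 cases. The deposited signals of 48102 probes (5 more lacked a value) were corrected with neqc of limma 3.58.1 in R 4.3.3, with an offset of 16, quantile normalization and log2. A probe passed if detected (p under 0.05) on 3 arrays or more, 25510 in all. Names came from the platform annotation, in which 30112 probes have 1 gene and 8 have several. The brightest passing probe stood for a gene, giving 13514 genes. limma fitted group means over all 12 arrays (8 residual and 3.3 prior degrees of freedom), and its two-sided moderated tests of 6 contrasts used Benjamini-Hochberg adjustment across the 13514 genes and a threshold of 0.05. A fit with a row per probe was adjusted over 18289 probes. The SE is the moderated one. The number of arrays limits the precision. Slide and scan batches could not be tested, as no slide or scan is named. The code was tested on simulated data.

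The members, gene lists and comparisons were chosen with earlier results of these data known. All 9 members are named. From each further list the text names up to 4 genes with the smallest p, counts of 5 or fewer, and genes not tested, apart from 6 adaptors without a named probe. Alternatives were other background correction, scaling, filters, probe choice, the replicate block, array weights, only the compared groups, the authors' values, a fold of 1.5 and leaving out each array.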

Additional observations from a re-analysis of the deposited data

Results flagged for a closer look

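The effect of gefitinib differed between co-culture and PC9 alone for 3 of the 8 tested genes, by limma's interaction test. HBEGF differed by 1.41 ± 0.19 on the log2 scale (SE, adjusted p = 0.0025), with falls of -0.87 in co-culture and -2.28 alone. ERRFI1 differed by 0.99 ± 0.17 (adjusted p = 0.00736), at 0.19 in co-culture and -0.80 alone. ERBB3 differed by -0.66 ± 0.12 (adjusted p = 0.0114), at 0.35 in co-culture and 1.00 alone, and this call was lost under median scaling (-0.26, adjusted p = 0.402) and with the mean of probes (-0.38, adjusted p = 0.124). Over all genes 7.27% were called.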

How the results depend on the processing

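Over 1042 repeats of the members' tests under alternatives, 1016 kept their side of the threshold, 14 passed it newly and 12 lost it. The sign turned in 48, none of them called in either fit. The 5 calls with gefitinib alone (EGFR, ERBB2, ERBB3, HBEGF, ERRFI1) were kept in 22 of 22 settings, and the HBEGF and ERRFI1 differences in 21 of 21. Some of the 1042 repeats could not move the estimate, such as a changed filter or leaving out an array of a group not compared. These counts follow the brightest probe or the mean of probes. The further tested probes of EGFR, ERBB2 and ERBB3 were not called with gefitinib alone. With median scaling the median change over all genes moved to -0.12 with gefitinib alone, 0.13 for gefitinib in co-culture, 0.19 for co-culture with gefitinib and 0.29 for the difference of effects, and the share of calls that were higher became 33.0% (51.6% in the reported fit), 83.7% (54.3%), 91.1% (52.7%) and 95.1% (54.1%). For co-culture without gefitinib that share was 35.3% (66.7%), and against DMSO alone 68.2% (52.6%). With the mean of probes the ERBB3 difference was -0.38 (adjusted p = 0.124). The EGFR and TGFA differences were called with no background correction (0.41 and 0.45), median scaling (0.87 and 0.91) and the authors' values (0.43 and 0.45), and EGFR also under the strict filter. For co-culture with gefitinib, median scaling called EGFR (0.49) and TGFA (0.57) and lost ERBB3, 4 higher and 0 lower in place of 2 and 1. It also lost EGFR against DMSO alone (adjusted p = 0.0733). The cause was not tested.

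With a fold of at least 1.5 the calls were 3289 of 5511 with gefitinib alone, 1411 of 2710 in co-culture, 829 of 1820 for co-culture with gefitinib and 1681 of 3385 against DMSO alone. Co-culture without gefitinib had 48 calls, against 171 with no background correction, 17 under median scaling, 119 from the authors' normalized table, 85 under a strict filter and 3 with only the compared groups. The difference of effects had 983, against 1600 with no background correction and 1668 with median scaling. Leaving out an array gave 4897 to 5469 (gefitinib alone), 2009 to 2682 (gefitinib in co-culture), 13 to 41 (co-culture without gefitinib), 1094 to 1743 (co-culture with gefitinib), 567 to 930 (difference) and 2441 to 3327 (against DMSO alone). Without array 2 or 3 of co-culture with gefitinib, co-culture with gefitinib had 1133 and 1094 calls and the difference 620 and 567. The replicate numbers did not pair the arrays: 0 of 18 same-numbered pairs correlated over 0.1, and 4 of 12 arrays correlated best with their own number. With the replicate number as a block, co-culture without gefitinib had 19 calls. LRIG1 entered the fit only without a filter, where 0 of 6 comparisons were called by limma at an adjusted p under 0.05 and 2 had an unadjusted p under 0.05.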

Other observations

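The LRIG1 probe ILMN_2128795, detected on 0 of 12 arrays, read 112, 101 and 105 in co-culture with gefitinib and 81.1, 87.2 and 97.7 in co-culture without it, against 85.7, 86.9 and 83.2 with gefitinib alone and 78.9, 82.8 and 89.0 with DMSO alone. In unprocessed signal the 3 arrays of co-culture with gefitinib were above the other 9. The estimated background was 95.3, 97.9 and 98.3 on these 3 arrays and 92.4 to 97.2 on the other 9. The other LRIG1 probe, ILMN_1707342, did not have this pattern. No test was made of ILMN_2128795, and its lowest detection p-value among the 12 arrays was 0.0571.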
